A study of Mus musculus with 6 samples.

Results

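Hyal3, Cep41 and Spats1 are 3 genes linked to sperm or the flagellum. Each was read here by 1 probe of the microarrays that measured mouse sperm RNA. The probes were chosen by name for Hyal3 (A_51_P390480, RefSeq transcript NM_178020) and Spats1 (A_51_P241577, NM_027649), and for Cep41 by its RefSeq transcript NM_031998 (A_51_P212271). They are 3 of 60691 probes analysed and of 50 catalogue probes with an accession. The other probes were not matched to genes. Each of the 3 was printed in 10 spots per array, which gave 60 spots per gene over 6 arrays. The spots of 1 array share its RNA, so they are technical repeats and the array is the replicate.

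The sperm came from male C57BL/6 mice aged 15 weeks. From 5 weeks of age, 1 group drank control water for 10 weeks (Control, n = 3) and the other drank water with 100 mg/L CdCl2 (Cd, n = 3). The labels call each sample a biological replicate and do not say how many animals gave it, so p-values measure the spread between these samples. On each array the immunoprecipitated RNA (IP, red dye Cy5) and the supernatant RNA (green dye Cy3) of 1 sample were hybridised together. The target of the immunoprecipitation is not named in the labels, and no dye swap is described, so fraction and dye cannot be told apart within an array.

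Mature sperm hardly transcribe, and their RNA is mostly what remains from spermatogenesis or was taken up in the epididymis. Hyal3 belongs to the hyaluronidase family, whose enzymes cleave hyaluronan, the sugar polymer of the cumulus matrix that sperm cross to reach the oocyte. Cep41 encodes a centrosomal and ciliary protein needed for the glutamylation of tubulin in the axoneme, the microtubule core of cilia and flagella. Spats1 encodes a serine-rich protein of spermatogenic cells whose function is little understood. Cadmium is a heavy metal long known as a toxicant of the testis.

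The start regions of Cep41 and Spats1 are shown because they share a feature that the choice of genes did not use. Both hold a match to the X-box, the palindromic element bound by RFX factors that is common near the starts of ciliary genes. The search was chosen after the sequences were seen. It looked for GTTGCC followed by GGCAAC with 0 to 3 bases between them and at most 1 mismatch in all, in the 300 bases from 250 before to 50 after each gene's start in RefSeq (GRCm38.p6). The pattern is its own reverse complement, so 1 scan covers both strands. The stretch of Cep41 is chr6:30693810-30693909 and that of Spats1 is chr17:45474923-45474988, both on the minus strand and written 5′ to 3′ with the match in capitals.
Cep41: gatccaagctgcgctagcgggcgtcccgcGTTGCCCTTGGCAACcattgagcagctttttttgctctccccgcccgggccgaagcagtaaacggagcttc
Spats1: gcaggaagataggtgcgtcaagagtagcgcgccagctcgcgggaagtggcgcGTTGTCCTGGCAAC
The match in Cep41 lies from -131 to -117 relative to the start, with 0 mismatches and 3 bases inside the palindrome. The match in Spats1 lies from 3 to 16 after the start, with 1 mismatch and 2 bases inside. Of 32851 start regions of this length, 53 (0.161%) held the pattern with 0 mismatches and 393 (1.2%) with up to 1. The Hyal3 region held no match, which says only that these letters are not in that window. A match is a description of sequence, and the arrays measured no binding or transcription.

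In RefSeq (GRCm38.p6), Hyal3 lies on chromosome 9, Cep41 on 6 and Spats1 on 17. Hyal3 overlaps the gene models of Hyal1, another hyaluronidase gene, and Naa80, an acetyltransferase gene, and lies between Hyal2 and Ifrd2. Cep41 overlaps the long noncoding RNA Gm13782, and Spats1 overlaps the pseudogene Gm9104. Probe sequences were not used here, so RNA of an overlapping gene that contains the probed stretch cannot be told apart from that of the named gene.

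A spot counted as well above background by the scanner software's flag, and a probe did so on an array when at least 50% of its spots without an outlier flag had it. The share of all probes that passed was 28.2%, 41.9% and 44.8% in control and 49.4%, 49.1% and 43.8% in Cd in the IP channel. In the supernatant it was 35.2%, 39.1% and 44.1% against 49.9%, 45.6% and 47.5%, higher on every Cd array (exact permutation p = 0.1, the smallest that 3 arrays against 3 allow, 2-sided). The arrays of each group came from 1 scan of their own, so in each comparison the scan and the water given cannot be told apart. Cd replicate 3 stood apart, with 199 probes at over 4 times their median summed level across arrays, against 2 to 28 on the others. Of 9 sperm markers, 7 of leukocytes, 8 of epithelium, 5 of Sertoli and Leydig cells and 2 of red blood cells, 0 had a probe with a known gene symbol, so the tissue label was not checked against markers. The same was true of 17 other hyaluronidase and acrosome genes, 27 other genes of the axoneme, centrosome and tubulin glutamylation and 23 other genes of spermatogenesis and sperm chromatin.

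Hyal3 was read mainly in the IP fraction, Cep41 in both fractions with the supernatant brighter, and Spats1 in neither. All 60 Hyal3 spots were well above background in the IP channel and 18 of 60 in the supernatant, 5 of 30 in control and 13 of 30 in Cd. The share of all probes above background in that channel was higher in Cd too, and its part in the Hyal3 count was not tested. For Cep41 it was 60 of 60 in both channels. For Spats1 it was 0 of 60 in both channels. By array, Hyal3 was measured in the IP channel on all 6, and in the supernatant on 0 control arrays and 2 Cd arrays. The array's lowest supernatant spot well above background read 136, 156 and 123 in control and 88.4, 110 and 97.0 in Cd. The part of this in the Hyal3 counts was not tested. No spot of the 3 probes was saturated.

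**Figure D1:**
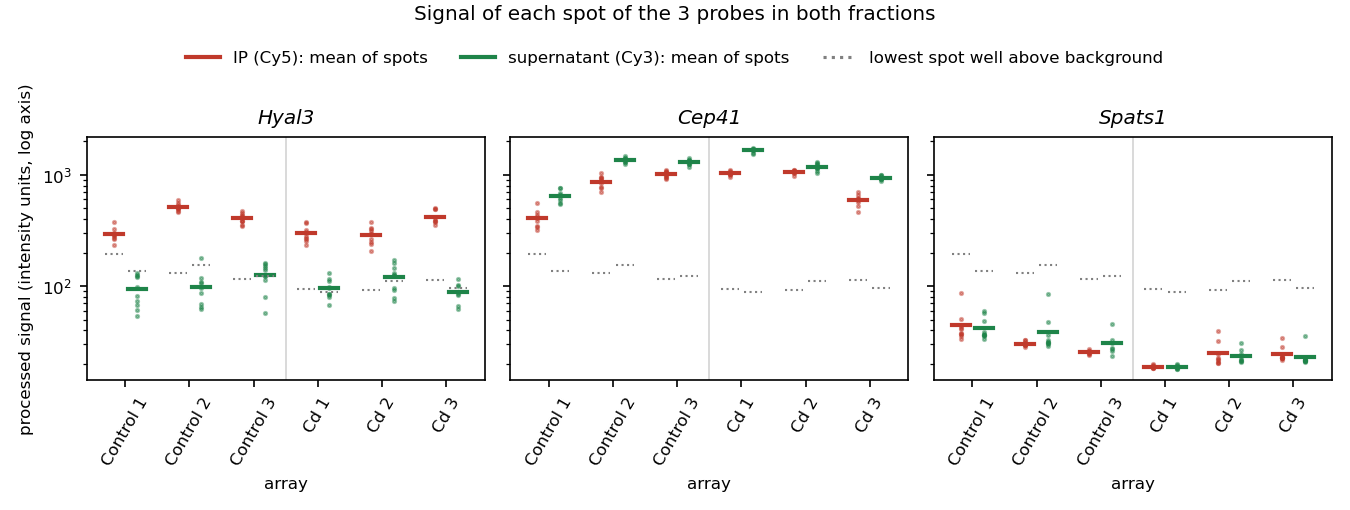
Processed signal (intensity units, log axis) of every spot without an outlier flag on the 3 control and 3 Cd arrays, red for the IP channel and green for the supernatant, with a bar at the mean of the spots and a dotted line at the array's lowest spot well above background in that channel. Hyal3 lies above the line in the IP channel, and in the supernatant below it on control replicate 1, mostly below it on control replicate 2 and on both sides of it on the other arrays, Cep41 lies above it in both channels on all 6 arrays, and Spats1 lies below it throughout.

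Hyal3, the hyaluronidase-family gene, was brighter in the IP than in the supernatant on every array. Its processed IP signal was 292, 514 and 406 in control and 297, 289 and 421 in Cd. Its supernatant signal was 93.7, 98.8 and 125 in control and 95.2, 120 and 87.8 in Cd. The groups overlapped in both channels, and the highest IP value was that of control replicate 2. All 60 spots had more IP than supernatant signal.

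The Hyal3 IP signal was 3.25-, 5.46- and 3.36-fold the supernatant signal in control and 3.15-, 2.47- and 4.84-fold in Cd, as the geometric mean over spots. No control array had Hyal3 well above background in the supernatant, so the control values rest on dim signals. The IP signal was also divided by the array's lowest supernatant spot well above background, or by the probe's own signal where higher. It was 2.15-, 3.30- and 3.24-fold that value in control. For Cd replicate 3, the Cd array without a supernatant reading, it was 4.34-fold. That lowest spot is not an upper limit for spots not well above background. On control replicate 3 it read 123, while a Hyal3 spot not well above background read 145. These values, like every ratio here, are open to dye bias. Between spots of an array the log2 ratio had an SD of 0.31 to 0.54, about the size of the SD between arrays.

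On the log2 scale, with each array's median set to 0, the Hyal3 ratio averaged 1.96 ± 0.44 (SD, n = 3) in control and 1.73 ± 0.43 (SD, n = 3) in Cd. The 3 control values were 1.67, 2.47 and 1.74 and the 3 Cd values 1.66, 1.34 and 2.20, so the groups overlapped. The difference, Cd minus control, was -0.23 (exact permutation p = 0.5, 2-sided; 0.1 is the smallest p possible), and it rests on supernatant signals not well above background on 4 of the 6 arrays. It turned to 0.03 without control replicate 2. With normexp background correction, which adds an offset and used median signals that were not dye-normalized, the control ratio was 0.37.

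The Hyal3 IP level, which is log2 IP signal less the array's 75th percentile, had a lower mean in Cd, and the difference did not pass the test. It was -0.03, 0.19 and -0.24 in control and -0.77, -0.80 and -0.11 in Cd. Cd replicates 1 and 2 lay below all control arrays, and Cd replicate 3 lay among them. The limma difference was -0.53 (SE 0.28, 95% interval -1.18 to 0.12, limma adjusted p = 0.65, 2-sided), or 0.440- to 1.09-fold. The sign of the difference depended on the scale. By median signal less local background, neither dye-normalized nor scaled, the Cd mean of the IP channel was also the lower, 27.5 against 30.2 (exact permutation p = 0.6). The supernatant mean by that measure was 14.2 for Cd against 19.8 for control, without overlap (exact permutation p = 0.1). The share of all probes without overlap by that measure was not counted. The negative-control spots read lower in Cd by that measure too, and their part in the lower Hyal3 means was not tested. The background-subtracted IP signal before dye normalization averaged 24.9 in control against 25.8 with Cd (exact permutation p = 1), and that of the supernatant 6.08 against 6.67 (exact permutation p = 0.5). If the level did differ, bulk sperm RNA could not tell fewer cells with a transcript from less of it per cell.

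The Hyal3 supernatant level was -1.82, -2.27 and -1.99 in control and -2.42, -2.09 and -2.38 in Cd, and the groups overlapped. No fold or difference is given for it, since the probe was well above background there on no control array and the Cd mean lay below the mean of the lowest levels that counted as well above background in control.

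The Hyal3 summed level, from both channels together, was -0.78, -0.69 and -0.97 in control and -1.46, -1.40 and -0.93 in Cd. As in the IP channel, Cd replicate 3 was the Cd array that lay within the control range. The limma difference was -0.45 (SE 0.21, 95% interval -0.95 to 0.04, unadjusted p = 0.0658, limma adjusted p = 0.502). Without Cd replicate 3 it was -0.62 (unadjusted p = 0.012, limma adjusted p = 0.469), and the IP difference was -0.75 (unadjusted p = 0.0201, limma adjusted p = 0.532). With the median of spots in place of the mean, the summed difference had an unadjusted p of 0.0482 (limma adjusted p = 0.484). In each of these the adjusted p stayed above 0.05 while the unadjusted p fell below it. Leaving out each of the other arrays gave a limma unadjusted p of 0.0758 to 0.185 for the summed difference. For the IP difference it was 0.0955 to 0.248. The limma unadjusted p of the summed difference was 0.0973 with normexp and 0.116 with the replicate block.

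Cep41, the tubulin glutamylation factor, was well measured in both fractions, and its signal was split nearly evenly with a tilt to the supernatant. Its IP signal was 409, 869 and 1011 in control and 1033, 1060 and 592 in Cd. Its supernatant signal was 649, 1361 and 1295 in control and 1665, 1177 and 941 in Cd. Control replicate 1 was the dimmest array in both channels and also had the lowest share of probes above background. The supernatant was brighter in 58 of 60 spots, and the 2 exceptions were on Cd replicate 2.

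The supernatant signal of Cep41 was 1.60-, 1.58- and 1.28-fold the IP signal in control and 1.61-, 1.11- and 1.60-fold in Cd. The centred log2 IP over supernatant ratio was -0.71, -0.63 and -0.37 in control, a mean of -0.57 ± 0.18, and -0.68, -0.11 and -0.76 in Cd, a mean of -0.52 ± 0.36 (SD, n = 3 each). All 6 values were below 0, and Cd replicate 2 was closest to it. The control ratio kept its sign with normexp (-0.26), loess (-0.60) and no centring (-0.56). Of the probes tested, 33.5% had a lower control mean ratio, so Cep41 was not at the supernatant extreme. Since dye goes with fraction, the sign was not tested against 0.

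The Cep41 ratio did not differ detectably between the groups. The limma difference was 0.05 (SE 0.27, 95% interval -0.57 to 0.68, limma adjusted p = 0.994), which leaves room for a change from 0.675- to 1.60-fold. Without Cd replicate 2 the difference was -0.15, and without control replicate 1 it was -0.01.

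The Cep41 levels were as close. The summed level was 0.68, 1.18 and 1.16 in control and 1.33, 1.08 and 0.66 in Cd. The lowest values belonged to control replicate 1 and Cd replicate 3, and the groups overlapped throughout. The limma difference was 0.02 (SE 0.25, 95% interval -0.55 to 0.58, limma adjusted p = 0.988), or 0.683- to 1.50-fold, and its sign depended on the processing.

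The IP and supernatant levels of Cep41 gave the same picture. The IP level averaged 0.82 ± 0.34 (SD, n = 3) in control and 0.84 ± 0.40 (SD, n = 3) in Cd, with a 95% interval of the difference from -0.68 to 0.72 (limma adjusted p = 0.99). The supernatant level was 1.35 ± 0.29 and 1.35 ± 0.34, with an interval from -0.59 to 0.59 (limma adjusted p = 0.999). These intervals do not show that Cep41 was unaffected. They bound the change that the 3 arrays per group could hide.

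**Figure D2:**
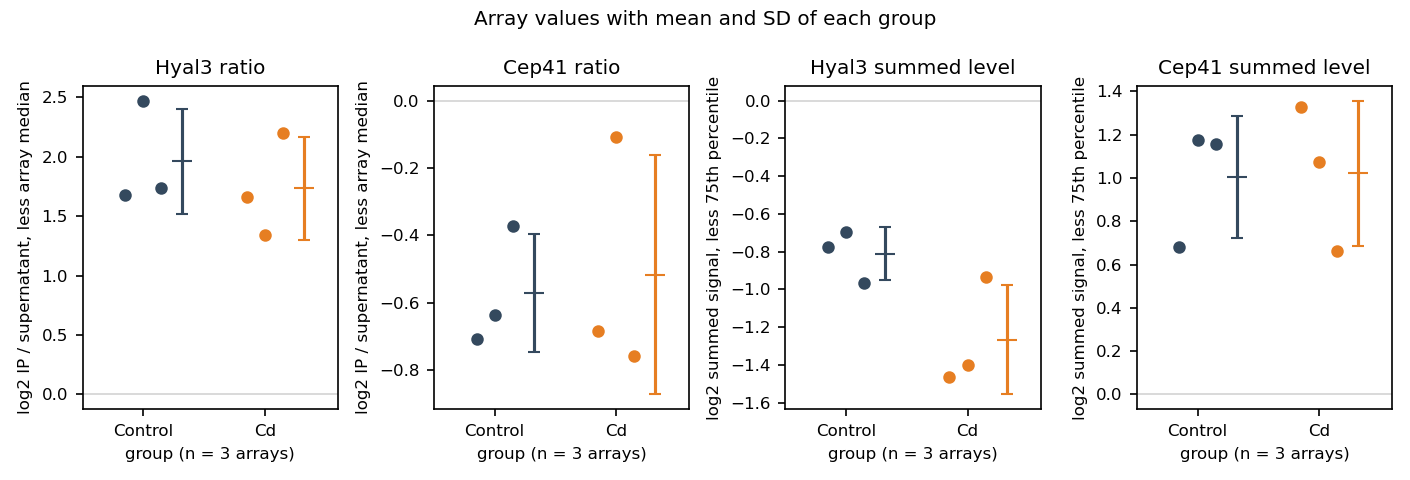
Centred log2 IP over supernatant ratio (left pair) and log2 summed level less the array's 75th percentile (right pair) of Hyal3 and Cep41, with 1 point per array, 3 arrays per group, and the mean and SD beside them. The axes differ between panels. Control and Cd values overlap in each panel, and for the Hyal3 summed level Cd replicates 1 and 2 lie below all control arrays.

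Counted over the 3 genes, 1 (Cep41) passed the filter of the ratio test, 2 (Hyal3 and Cep41) that of the summed level and of the IP level, and 1 (Cep41) that of the supernatant level. The filter asked for a probe well above background on at least 3 of the 6 arrays. Of these, 0 were called by limma at an adjusted p of 0.05, and 0 had an unadjusted p under 0.05 with all arrays and the mean of spots. In data simulated with each probe's spread, 0% of probes given a log2 change of 1 were called in each measure. Among those given a change of 2, it was 45% to 78.5%. The calls thus say little on changes of the size seen here. Over all probes tested the share called was 0.0042% for the ratio (1 of 23788) and 0% for the summed level (0 of 30518), the IP level (0 of 27413) and the supernatant level (0 of 26878). At an unadjusted p under 0.05 the counts were 1194 (5.02%), 3129 (10.3%), 2194 (8%) and 2570 (9.56%). The ranges of Control and Cd lay apart for 10% of probes in the ratio, 19.5% in the summed level, 16.3% in the IP level and 18.2% in the supernatant level. Hyal3 and Cep41 were not among them in any of these fits they entered. The median difference over all probes was 0.04 for the ratio and -0.0008 for the summed level, and the median 95% interval reached 0.69 and 0.55 log2 to each side.

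Spats1, the spermatogenesis gene, was not well above background in either group, so no fold, ratio or level is compared for it. Its processed supernatant signal was 42.0, 38.5 and 30.5 in control and 18.7, 23.6 and 22.9 in Cd, below the lowest spot well above background on each array, which ranged from 88.4 to 156. Its background-subtracted IP signal, before dye normalization, was 0.994, -1.13 and -0.732 in control and -0.533, 0.767 and -0.705 in Cd, in the scanner's intensity units, and the groups overlapped (exact permutation p = 0.8). On other scales the IP channel did not overlap, with a processed signal of 33.5 ± 9.83 in control and 22.7 ± 3.35 in Cd and a median signal less local background of 5.15 ± 2.76 and 1.38 ± 0.61 (SD, n = 3 each; exact permutation p = 0.1 for both). The share of all probes without overlap on these scales was not counted. Less the array's negative-control mean, the median IP signal less local background of Spats1 was 2.35, 0.43 and 0.34 in control. In Cd it was 0.85, 1.46 and 0.26, and the groups overlapped (exact permutation p = 0.8). Its background-subtracted supernatant signal was 0.746, 0.787 and 1.50 in control and 0.0053, 0.436 and 0.0685 in Cd. Under the looser flag for a positive and significant signal, 8 of 60 spots passed in the IP channel and 16 of 60 in the supernatant, of which 12 were on control and 4 on Cd arrays. All supernatant values were near 0, and the 3 Cd arrays lay below the 3 control arrays (difference -0.84, exact permutation p = 0.1, the smallest possible). For this supernatant scale too, the share of all probes without overlap was not counted.

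The negative controls also read lower in Cd on some scales, but not on all. Their median processed signal in the supernatant was 36.1, 30.3 and 25.0 in control and 18.7, 21.7 and 21.5 in Cd. In the IP channel it was 36.9, 29.8 and 25.3 against 18.8, 21.0 and 22.9. The groups overlapped in neither channel, and the part of this in the processed Spats1 signals was not tested. On the background-subtracted scale, the mean of the 308 negative-control spots in the supernatant was -1.47, -1.30 and -1.29 in control. In Cd it was -1.47, -1.12 and -1.19, and the groups overlapped. For the same spots, the mean of the median signal less local background was 12.4, 12.3 and 11.5 in control and 6.31, 5.24 and 5.50 in Cd (exact permutation p = 0.1). These spots read, for the IP channel, 5.95, 3.57 and 2.81 against 0.708, 0.430 and 0.443. The Spats1 spots read 15.5, 13.5 and 14.6 against 7.78, 6.50 and 7.45 in the supernatant on that last scale, above the negative-control mean on all 6 arrays. Less the negative-control mean of its array on that scale, Spats1 read 3.05, 1.23 and 3.15 in control and 1.47, 1.26 and 1.95 in Cd, and the groups overlapped (exact permutation p = 0.4). On the software's background-subtracted scale the same subtraction gave 2.21, 2.09 and 2.78 against 1.48, 1.55 and 1.26, which did not overlap (exact permutation p = 0.1). How many of all probes would not overlap after that subtraction was not counted. In the supernatant, on the background-subtracted scale, 86.4% to 97.4% of the negative-control spots of an array lay below the Spats1 mean. In the IP channel it was 62.0% to 92.2%.

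**Figure D3:**
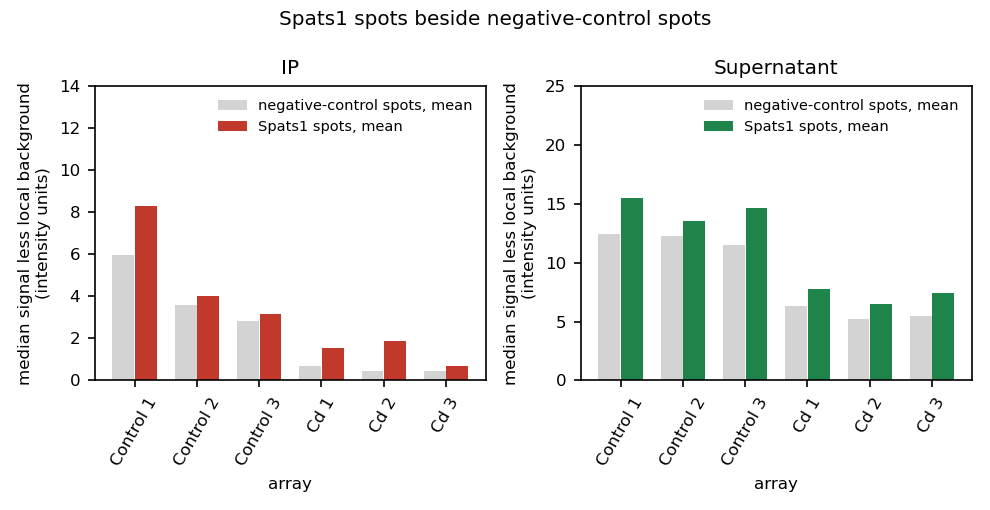
Mean of median spot signal less local background (intensity units) for the Spats1 spots without an outlier flag (coloured) and the 308 negative-control spots (grey) of each array, IP on the left and supernatant on the right. On each array the Spats1 bar is a little above the negative-control bar, and in the supernatant both are lower in Cd than in control.

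Across the 6 arrays, the genes whose summed level ran most like that of Hyal3, out of 35 others with a known symbol that passed the same filter, were Ppara, a nuclear receptor of lipid catabolism (Pearson r = 0.94), Mbp, myelin basic protein (r = 0.93), and Chgb, a secretory granule protein (r = 0.91). The mean summed level of Mbp was 0.20 in control and -2.80 in Cd, that of Chgb -1.09 and -2.93, and that of Ppara 0.85 and 0.46. Each was lower in Cd, as was that of Hyal3, and the part of this in their r was not tested. The median r with Hyal3 over the 35 genes was 0.13. For Cep41 they were Uhrf1bp1l (r = 0.94), Taf1a, a subunit of an RNA polymerase I initiation factor (r = 0.92), and Rab5a, a GTPase of early endosomes (r = 0.88), against a median r of 0.16. The 6 arrays include both groups and share their scaling, and the genes were picked as the highest of 35, so these values describe the arrays only. Between Hyal3 and Cep41 r was -0.48.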

How the data were processed

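RNA of 6 mouse sperm samples was measured on 2-colour Agilent arrays. The deposited tables give spot intensity; the processed intensity of both channels had been background-subtracted and dye-normalized (linear factor and lowess), per the file headers, in Agilent's Feature Extraction software, version 11.0.1.1. The log10 ratio in the deposited tables served as a check of the processed signals. The authors' series table was not used, since it has no row for these probes.

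Spots with a non-uniformity, population or manual outlier flag were removed, log2 spot values of a probe were averaged, and control, spike-in and negative probes were left out. Cd was tested against Control by limma (lmFit, eBayes; version 3.58.1, R 4.3.3) over all probes passing the filter and without a missing value, with Benjamini-Hochberg adjustment. Members failing the filter got an exact permutation test. The code was tested on simulated data. Named genes were the 3 members and, per measured member, the 3 most alike in summed level. Members and lists were chosen with earlier results of these data known. Alternatives changed background correction, filter, detection rule, spot summary, normalization, variance model, block and arrays. Normexp used median signals. Figures used matplotlib 3.10.9. The number of arrays limits the precision.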

Additional observations from a re-analysis of the deposited data

How the results depend on the processing

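The limma adjusted p of Hyal3 and Cep41 stayed above 0.05 in each alternative that limma fitted. This says little on stability, since most Hyal3 ratio and supernatant values had only the exact permutation test, which cannot go below 0.1 with 3 arrays a group. The Hyal3 difference stayed below 0 in all 16 alternatives for the summed level (-0.62 to -0.16) and the IP level (-0.75 to -0.18). The changes of filter, detection rule, variance model and block leave a probe's own difference as it was, so their sign was fixed in advance. Normexp gave the value nearest 0 for both levels, and moved the control ratio to 0.37 for Hyal3 and -0.26 for Cep41. It added an offset of 50 and also used median signals that were not dye-normalized, and the part of each was not tested. When each array was left out, the differences of Hyal3 ranged from -0.46 to 0.028 (ratio), -0.62 to -0.36 (summed) and -0.75 to -0.41 (IP), and those of Cep41 (ratio, summed, IP, supernatant) from -0.15 to 0.17, -0.14 to 0.20, -0.17 to 0.25 and -0.19 to 0.14. The control ratio ranged from 1.71 to 2.10 for Hyal3 and from -0.67 to -0.50 for Cep41. Cep41 level differences near 0 changed sign with outlier spots kept (summed -0.0096, IP -0.024, supernatant -0.015), the median of spots (supernatant -0.021), quantile normalization (supernatant -0.028) and median scaling (IP -0.0015); the cause was not tested.

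Over all probes, the 1 probe called for the ratio became 0 with normexp, no filter, the filter on all 6 arrays and the replicate block, and 0 to 1 when each array was left out. For the supernatant level 1 probe was called with the filter on all 6 arrays and with a variance trend, and 0 to 1 without single arrays, as for the summed level. Hyal3 was measured in the control supernatant on 2 arrays when 1 spot sufficed and on 3 by the positive and significant flag, which also put Spats1 on 1. The labels do not say that replicate numbers pair the arrays. For the summed level, the correlation of deviations between arrays of 1 number was -0.41, 0.43 and 0.0038, and for the ratio -0.07, -0.05 and -0.12. It was -0.26, 0.41 and -0.12 for the IP level and -0.39, 0.13 and 0.11 for the supernatant level. With so few arrays these values cannot show whether the arrays are paired. With the replicate block the Hyal3 summed difference was -0.45 (limma adjusted p = 0.649). A block for scan could not be fitted. The series table and, for the Hyal3 ratio and supernatant, the block, trend and filter on all 6 arrays were not run. Dim supernatant signal limits Hyal3 and Spats1.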
